A study of Saccharomyces cerevisiae with 12 samples.

Results

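The genes described are 46 genes for proteins of the large ribosomal subunit of budding yeast, Saccharomyces cerevisiae, taken by systematic name from the intron-containing genes whose symbols begin with RPL. The members are the rows of the deposited table of splice forms that name one of these genes as host. They came to 223 forms in 43 of the 46 genes, of 6195 forms in the whole table. A splice form is a pair of positions between which sequenced reads skip the bases in between. The R64 annotation of coding sequence gave an intron to 45 of the 46 genes. The exception was RPL32 (YBL092W), whose 2 listed forms had 0 reads.

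Ribosomal protein genes are among the most heavily transcribed genes of yeast, and most of the splicing in growing cells is of their transcripts. The spliceosome recognises the 5′ splice site (consensus GTATGT), the branch-point sequence (TACTAAC, whose sixth base is the branch A) and an AG at the 3′ splice site, usually CAG or TAG. Most of these proteins are encoded by a pair of duplicated genes, called paralogs, whose names end in A and B. A splice that joins the wrong positions usually shifts the reading frame and brings in an early stop codon, and such transcripts are known targets of nonsense-mediated decay. Prp43 is a helicase of the DEAH-box family that takes spliceosomes apart after splicing or when they stall. Set1 and Set2 each methylate a lysine in the tail of histone H3 on transcribed genes.

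The 6 genotypes were prp43-1 set2Δ, prp43-1 set1Δ, prp43-1, set2Δ, set1Δ and wild type. They are haploid strains labelled BY4741, MATa, and all carry his3Δ1, leu2Δ0, met15Δ0 and ura3Δ0. Each genotype gave 1 library of rRNA-depleted total RNA at 37 °C and 1 at 25 °C, 12 libraries in all, and no combination was repeated. The labels' growth protocol gives YPD medium at 25 °C to an optical density of 0.3 for every culture, and the length of the exposure to 37 °C is not given in the sources used here. The design sets heat, loss of Prp43 function and loss of either histone methyltransferase against the use of unusual splice sites.

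The member genes held 1293 of the 3455374 reads in the table (0.0374%), with 50 to 200 per library. Between 74.5% and 87.5% of each library's reads lay on SCR1, a noncoding RNA that is part of the signal recognition particle, and forms in coding genes had 25404 to 56868 reads per library. The member genes had 19.7 to 39.1 reads for every 10000 reads in coding genes. These coding reads leave out forms whose host name was not matched to the annotation, which held 203067 reads in the 12 libraries together. Genes known to be expressed only in α cells had 2 to 99 reads in both libraries of prp43-1 set2Δ, of set2Δ and of set1Δ and 0 reads in the other 6, although the labels call all strains MATa. Genes expressed only in a cells had 1 to 3 reads in those other 6 libraries and 0 where α-specific reads were found. This difference in cell-type reads coincides with the genotype in every pair of the set2Δ comparison and in the pairs without prp43-1 of the set1Δ comparison. It also coincides with prp43-1 in the pairs of prp43-1 set1Δ with set1Δ. In these pairs cell type and genotype cannot be told apart.

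The forms with GT-AG ends among the most abundant members show what is unusual in these introns, so the bases around their splice sites are printed here from the R64 genome of RefSeq, each 5′ to 3′ on the strand of the gene. The most abundant form of all, in RPL27A (YHR010W), begins at the annotated 5′ splice site. The first line gives that site at chrVIII:126540-126563, + strand, with the first 6 bases of the intron in capitals.
RPL27A 5′ site: ctggtaaagttgGTACGTatcatt
The next line gives the 3′ end of the same form, at chrVIII:126786-126828, + strand. Its capitals mark a heptamer 1 mismatch away from TACTAAC and the last 3 skipped bases.
RPL27A early 3′ end: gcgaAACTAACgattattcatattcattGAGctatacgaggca
The 5 sequences that follow each begin at TACTAAC of the annotated intron and hold 2 sites, the annotated 3′ end and the 3′ end of the listed form, both in capitals. They are RPL34A (YER056C-A) at chrV:269744-269810, − strand, RPL21B (YPL079W) at chrXVI:407000-407075, + strand, RPL40A (YIL148W) at chrIX:69109-69167, + strand, RPL35A (YDL191W) at chrIV:118104-118178, + strand, and RPL26A (YLR344W) at chrXII:819752-819801, + strand. RPL21B was added after its values were seen, because its form also ends early.
RPL34A: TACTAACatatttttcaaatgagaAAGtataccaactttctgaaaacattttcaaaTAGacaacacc
RPL21B: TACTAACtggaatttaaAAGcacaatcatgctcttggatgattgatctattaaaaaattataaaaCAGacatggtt
RPL40A: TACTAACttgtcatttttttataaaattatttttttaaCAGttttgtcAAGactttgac
RPL35A: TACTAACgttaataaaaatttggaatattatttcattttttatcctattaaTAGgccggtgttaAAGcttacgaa
RPL26A: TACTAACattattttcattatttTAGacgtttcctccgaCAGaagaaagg
In RPL34A and RPL21B the listed form ends at the first AG-ended triplet in capitals, before the annotated site. In RPL40A, RPL35A and RPL26A it ends at the second, beyond the annotated site.

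Reads lay on few of the forms. Of the 223 forms, 60 had 0 reads, 53 had 1 read, 22 had at least 10 and 5 had at least 50. The 15 forms with the most reads held 807 reads, 62.4% of the total, and the first 2 held 28.6%. By library, 75 forms were seen in 1 library and 3 in all 12. The 37 °C libraries showed 107 forms, 39 of them in no 25 °C library, and the 25 °C libraries showed 124 forms, 56 of them in no 37 °C library. Libraries with prp43-1 showed 121 forms, against 109 in libraries with PRP43. Member reads were also unequal, 544 at 37 °C and 749 at 25 °C, and 619 with prp43-1 and 674 with PRP43. The 75 forms seen in 1 library are by that alone absent from the other temperature, so these counts do not show that a form belongs to a temperature. They were not set against the whole table and were not tested.

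The 10 genes with the most reads held 949 reads, 73.4% of the total. RPL27A had 227 reads, RPL23B (YER117W) 180, RPL2B (YIL018W) 130, RPL21A (YBR191W) 98 and RPL40A 74. RPL34A had 68 reads, RPL16A (YIL133C) 57, RPL27B (YDR471W) 43, RPL17A (YKL180W) 39 and RPL26A 33. RPL2 proteins sit near the peptidyl transferase centre, RPL40A encodes its ribosomal protein fused to ubiquitin, and Rpl35 and Rpl26 lie by the exit of the nascent peptide. No form was listed in RPL31A (YDL075W), RPL43A (YPR043W) or RPL43B (YJR094W-A), and RPL19A (YBR084C-A) had 1 form with 0 reads.

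**Figure D1:**
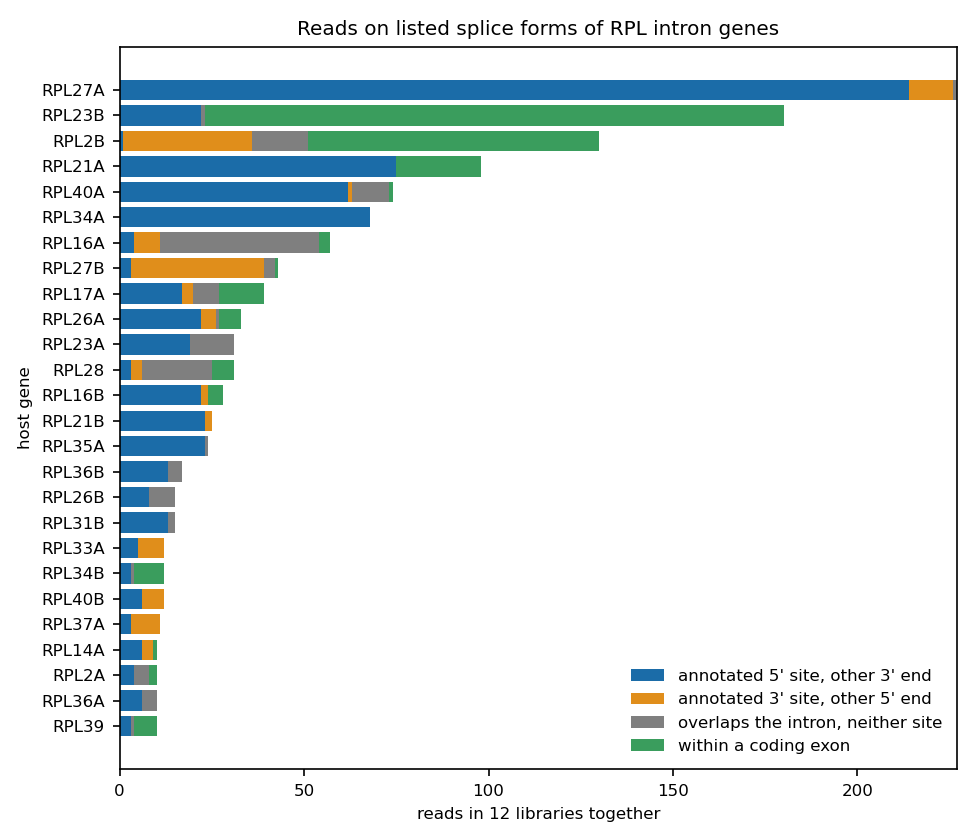
Horizontal bars give the reads in 12 libraries together for the 26 genes with at least 10 reads, split by where the form lies relative to the annotated intron. RPL27A is nearly all on forms that keep the annotated 5′ site, RPL23B is mostly on a form within a coding exon, and RPL27B is mostly on forms that keep the annotated 3′ site.

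The annotated introns of the members are long and close to consensus. All 45 begin with GT and end with AG, 37 begin with GTATGT, and 44 hold TACTAAC (97.8%), against 232 of the 281 annotated introns of all coding genes (82.6%). Their median length was 405 nt (147 to 561), against 141 nt over all coding genes. They end with TAG in 24 cases, with CAG in 21 and with AAG in 0.

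The listed forms were less regular. GT-AG ends on the strand of the gene were found in 89 of the 223 forms, 39.9% (Wilson 95% interval 33.7 to 46.5). The same share was 39.1% (28.5 to 50.9) of 69 forms in the 7 other RPL genes with an annotated intron, which are not among the 46. It was 38.0% (32.1 to 44.4) of 234 forms in the 36 intron-containing genes of the small subunit, and 47.0% (42.7 to 51.4) of 500 forms in 183 other genes with introns. Without an annotated intron, the share was 7.55% (3.87 to 14.2) of 106 forms in 23 RPL genes, and over the whole table it was 11.9%. The members' interval overlapped those of the 3 other groups with introns. GT-AG forms were listed in 37 of the 46 genes, and 29 of the 89 had 0 reads. The 60 with reads, in 33 genes, held 605 reads, 46.8% of the members' reads.

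By position relative to an annotated intron, the forms fell into 4 classes, beside the 2 forms of RPL32. Forms that keep the annotated 5′ site and end elsewhere made up 97 of the 223, in 33 genes, and held 668 reads, 51.7% of the total (48.9 to 54.4). The other classes were smaller. Forms that keep the annotated 3′ site numbered 42 with 148 reads, and 43 forms with 146 reads overlap the intron but share neither of its ends. A further 39 forms lie within a coding exon, in 23 genes, and held 331 reads, 25.6%.

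When spliced sequence was translated from the annotated start, 153 of the 223 forms (932 reads) met an early stop codon and 61 forms (347 reads) stayed in frame to the annotated stop. Of the 89 GT-AG forms, 71 (568 reads) had an early stop and 14 (28 reads) stayed in frame. Among the 39 exon forms, 28 stayed in frame (261 reads).

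New GT-AG 3′ ends upstream of the annotated one were few, and 2 of them carried most of the reads. The 18 GT-AG forms of this kind, in 15 genes, held 315 reads, and all 18 had an early stop. Only 6 of them hold TACTAAC, and the 12 without it held 230 reads. A further 22 forms, in 16 genes with 46 reads, keep the annotated 5′ site and end 2 to 139 nt upstream without an AG. The form of RPL27A, VIII:126552-126816, is 265 nt long and ends 296 nt before the annotated 3′ site, within an annotated intron of 561 nt. The near-consensus AACTAAC in its printed 3′ end has its branch A 21 nt before the end. The motif NACTAAC, searched on the strand of the gene with TACTAAC among its matches, was found in 160 of 599 listed forms of 200 to 330 nt (26.7%). Most of these matches hold TACTAAC itself, which was found in 134 of the 599 (22.4%). The spliced transcript would stop after 22 codons, against 136 codons in the annotated protein.

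The RPL34A form, V:269784-270148, is 365 nt long and ends at AAG, 32 nt before the annotated TAG. In the printed sequence, its AAG lies 21 nt after the branch A of TACTAAC. RPL34A had 31 reads on this form in the 37 °C libraries (lowest 0, median 4.5, highest 10) and 34 in the 25 °C libraries (lowest 2, median 5.5, highest 8), so the temperatures overlapped. The RPL21B form, 373 nt long, ends 48 nt early at an AAG 14 nt after the branch A, and had 13 reads.

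New GT-AG 3′ ends downstream of the annotated site were more numerous, with fewer reads each. There were 41 such forms in 24 genes with 176 reads, at a median of 29 nt into the second exon, and 21 of them (123 reads) lay within 30 nt. All 41 hold TACTAAC, which lies in the annotated intron they contain. They ended with AAG in 24 cases, with CAG in 11, with TAG in 5 and with GAG in 1, while no annotated intron of the members ends with AAG. An early stop followed in 29 and an in-frame product in 10.

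RPL35A, whose protein lies by the nascent-peptide exit, ended 13 nt downstream at an AAG and had 23 reads on the 504-nt form IV:117667-118170. Its 37 °C libraries had 17 reads (lowest 0, median 2.5, highest 6), against 6 in the 25 °C libraries (lowest 0, median 1, highest 2). RPL40A ended 10 nt downstream at an AAG, on the 444-nt form IX:68716-69159, with 22 reads. RPL26A ended 16 nt downstream at a CAG, on the 463-nt form XII:819331-819793, with 22 reads, 9 of them at 37 °C and 13 at 25 °C.

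A second group of downstream ends lacks the AG. In 14 forms of 13 genes the 3′ end lies 1 or 2 nt past the annotated site, and these held 128 reads, all with an early stop. Their bases are printed with the last 3 bases of the annotated intron and the 1 or 2 added bases in capitals, because the same shift recurs across genes. These forms were chosen for printing after their values were seen. The positions are chrII:606653-606680, chrXVI:407052-407079, chrIX:69134-69160 and chrV:397266-397292, all on the + strand.
RPL21A, 2 nt past: tttccttataataCAGACacggttacag
RPL21B, 2 nt past: aaaaattataaaaCAGACatggttacag
RPL40A, 1 nt past: attatttttttaaCAGTtttgtcaaga
RPL23B, 1 nt past: cattttttttaaaTAGTtaggtttacc
RPL21A had 58 reads on its form (390 nt, II:606281-606670), RPL40A 30 (435 nt, IX:68716-69150), RPL23B 19 (472 nt, V:396811-397282) and RPL21B 6. RPL21A had 21 of these reads at 37 °C (lowest 0, median 3.5, highest 7) and 37 at 25 °C (lowest 1, median 5.5, highest 11). Both of its libraries with 0 reads were 37 °C libraries with prp43-1.

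**Figure D2:**
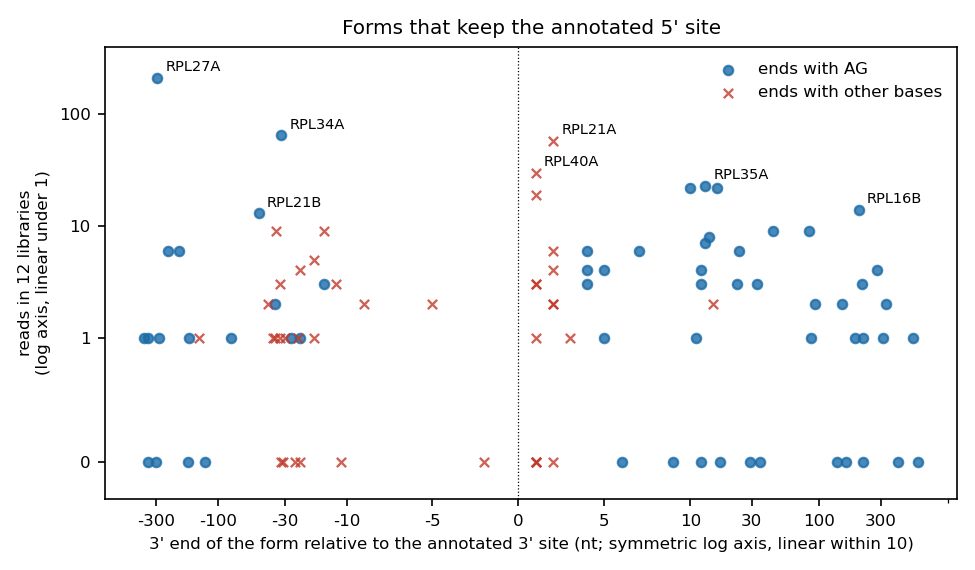
Each point is 1 form that keeps the annotated 5′ site, placed by the distance of its 3′ end from the annotated 3′ site (nt, symmetric log axis) and by its reads in 12 libraries (log axis, linear under 1). Filled circles end with AG and crosses do not. RPL27A with 213 reads stands far upstream, crosses gather at 1 and 2 nt downstream, and circles spread further into the second exon. Another 22 crosses, with 46 reads together, lie 2 to 139 nt upstream.

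Changes of the 5′ site were rarer. A 5′ end exactly 4 nt upstream of the annotated one was listed in 7 genes with 62 reads. RPL27B had 32, RPL27A 12, RPL33A (YPL143W) 7, RPL26A 4, RPL14A (YKL006W) 3, RPL14B (YHL001W) 3 and RPL2B 1. Only the 2 forms of the RPL27 pair, with 44 reads, have GT-AG ends, and the other 5, with 18 reads, do not. In the RPL27 paralogs the bases at this place repeat the start of a donor, as shown by chrVIII:126536-126565 and chrIV:1401785-1401814, + strand, where capitals mark the 4 added bases followed by the first 6 bases of the annotated intron.
RPL27A donors: aaagctggtaaaGTTGGTACGTatcatttt
RPL27B donors: aaagcaggtaaaGTTGGTACGTaaatttaa
The upstream donor is GTTGGT and the annotated one GTACGT in both genes. The RPL27B form, 388 nt at IV:1401797-1402184, meets a stop after 22 codons.

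GT-AG forms with a donor inside the intron numbered 23 in 14 genes, with 52 reads, and 13 of them had 0 reads. More than any other, RPL2B carried them, with 28 reads on a 154-nt form at IX:317018-317171 that starts 246 nt into the intron. Its donor is printed from chrIX:317003-317032, and the annotated donor from chrIX:316768-316786, both + strand, with the first 6 skipped bases in capitals.
RPL2B internal donor: acgttggctatcaaaGTATGAgaataagcc
RPL2B annotated donor: atggGTATGTttttattat

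Forms without GT-AG ends held a large share of the reads in some genes. The second most abundant form of all was a 126-nt skip in the second exon of RPL23B, V:397433-397558, with 157 reads. It leaves the frame open to the annotated stop, with 95 codons against 137. Its 2 ends are printed from chrV:397417-397446 and chrV:397543-397572, + strand, with the bases that occur at both ends in capitals.
RPL23B left end: gccactgttaaaAAGGGTaagccagaattg
RPL23B right end: atcgctaatcctAAGGGTgaaatgaagggt
Because the 6 bases AAGGGT stand at both ends, the exact joining point within them cannot be read from the sequence. A repeat of at least 4 bases at the ends was found in 10 of the 39 exon forms, 25 of the 39 were shorter than 50 nt, and 28 had a length that is a multiple of 3. RPL2B had 2 further abundant exon forms, of 325 nt (55 reads, IX:317371-317695) and of 90 nt (23 reads, IX:317255-317344).

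A 30-nt skip in the second exon of RPL21A, II:606804-606833, had 21 reads. It is shown whole, from chrII:606794-606843, + strand, with the skipped bases in capitals, and was chosen for printing after its values were seen.
RPL21A 30-nt skip: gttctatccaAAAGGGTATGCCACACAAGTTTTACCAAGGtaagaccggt
It has no GT-AG ends and stays in frame. It had 3 reads at 37 °C (lowest 0, median 0, highest 2) and 18 at 25 °C (lowest 2, median 3, highest 4). The groups touch at 2 reads.

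Among forms that overlap the intron without sharing an end, RPL16A had the most reads, 39 on a 255-nt form (IX:99133-99387) that begins 2 nt upstream of the annotated 5′ site and ends 37 nt before the annotated 3′ site. It was read in all 12 libraries. In 4 forms of 3 genes both ends were moved by the same number of bases, so that the length equals the annotated one. They are in RPL2B (400 nt, 15 reads), RPL23A (YBL087C, 504 nt, 10 reads) and RPL2A (YFR031C-A, 147 nt), and together held 29 reads.

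Few forms were shared by paralogs. Of the 46 genes, 42 form 21 pairs, and RPL25 (YOL127W), RPL28 (YGL103W), RPL32 and RPL39 (YJL189W) are single. In 6 pairs, 8 forms lay at the same distance from the same annotated site in both paralogs, and 4 of the 8 have GT-AG ends. The 5′ end 4 nt upstream had 12 reads in RPL27A and 32 in RPL27B. It had 3 in RPL14A and in RPL14B, where the skip begins with GAAGGT and not with GT. The end 2 nt past the 3′ site had 58 reads in RPL21A and 6 in RPL21B. A TAG 4 nt past it had 6 reads in RPL23A and 3 in RPL23B, and a CAG 12 nt past it had 3 in RPL21A and 4 in RPL21B.

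The reads of a pair were often unequal. RPL2B had 130 reads and RPL2A 10, RPL27A had 227 and RPL27B 43, and RPL23B had 180 and RPL23A 31. The levels of the paralogs' mature transcripts were not analysed here, so these are reads on listed forms and not rates of splicing. The 25 bases next to a skip occur elsewhere in the genome for 36 forms with 284 reads, and reads of those forms could belong to another copy.

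The share of member reads on forms that keep the annotated 5′ site differed between libraries. It ran between 45.1% and 62.5% in the 37 °C libraries and between 23.9% and 58.5% in the 25 °C libraries, so the ranges overlap. The lowest share was in wild type at 25 °C, 23.9% of 109 reads (16.8 to 32.7), and the next lowest in set2Δ at 25 °C, 37.5% of 96 reads (28.5 to 47.5). In these 2 genotypes at 37 °C the shares were 55.5% (46.8 to 63.8) in wild type and 56.4% (46.7 to 65.7) in set2Δ. Wild type at 25 °C was also the library with the highest SCR1 share, 87.5%, whose part in this was not tested.

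**Figure D3:**
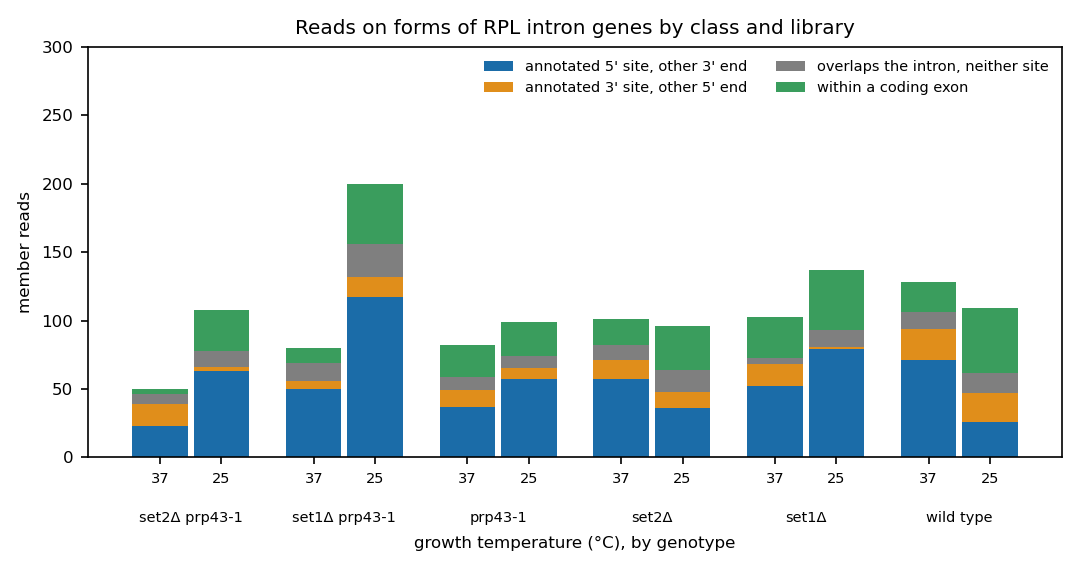
Stacked bars give the member reads of each of 12 libraries by class of form, for each genotype at 37 °C (left) and 25 °C (right). Totals run between 50 reads in prp43-1 set2Δ at 37 °C and 200 in prp43-1 set1Δ at 25 °C, and wild type at 25 °C has the smallest part on forms with the annotated 5′ site.

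Heat, prp43-1 and the deletions were compared with edgeR's quasi-likelihood test, fitted across all forms of the table with 12 libraries, and with Benjamini-Hochberg adjustment at 0.05. Only 2 member forms, in RPL27A and RPL23B, had enough reads to be kept, of 451 kept in all, so these tests say nothing of the other member forms. No member form passed in any comparison. Over the whole table, 7.98% of kept forms passed for 37 against 25 °C (36 of 451) and 3.99% for prp43-1 against PRP43 (18 of 451). For set1Δ against SET1, set2Δ against SET2 and the interaction of prp43-1 with temperature the share was 0%. At an unadjusted p under 0.05, 106, 76, 15, 17 and 48 forms of the table passed in these 5 comparisons in that order. Of the 2 member forms, 0 did so in each comparison except the interaction, with 1. DESeq2 on the same model called 0 member forms.

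RPL27A's 265-nt form was present in every library. At 37 °C it had 6 reads in prp43-1 set2Δ, 15 in prp43-1 set1Δ and 6 in prp43-1, against 12 in set2Δ, 21 in set1Δ and 22 in wild type. At 25 °C it had 21 reads in prp43-1 set2Δ, 54 in prp43-1 set1Δ and 19 in prp43-1, against 13 in set2Δ, 18 in set1Δ and 6 in wild type. With prp43-1, each strain had fewer reads than its PRP43 partner at 37 °C and more at 25 °C. The pair of prp43-1 set1Δ with set1Δ, which includes the 54 reads, also differs in cell-type reads.

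Scaled to the library size (CPM, reads per 1000000 of the scaled column total), RPL27A's 265-nt form averaged 33.8 ± 18.9 at 37 °C in the prp43-1 strains and 68.5 ± 20.1 in the PRP43 strains (SD, n = 3 genotypes each). At 25 °C it averaged 96.4 ± 33.2 in the prp43-1 strains and 43.8 ± 25.5 in the PRP43 strains (SD, n = 3 genotypes each). The groups overlapped at 37 °C, where the highest prp43-1 value was 55.1 and the lowest PRP43 value 49.5. They did not overlap at 25 °C, where the lowest prp43-1 value was 68.4 and the highest PRP43 value 67.4.

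The interaction of prp43-1 with temperature for the 265-nt form of RPL27A had a log2 value of −2.27 (SE 0.69, edgeR unadjusted p = 0.00646, adjusted p = 0.265), which did not pass. Averaged over genotypes, 37 against 25 °C gave a log2 fold change of −0.41 (SE 0.46, edgeR adjusted p = 0.636), with a higher CPM in 2 of 6 pairs of libraries. All counts of pairs compare CPM. Averaged over temperatures, prp43-1 against PRP43 gave 0.09 (SE 0.46, edgeR adjusted p = 0.949), higher in 3 of 6 pairs. The log2 fold change was 0.53 for set1Δ (edgeR adjusted p = 0.996) and −0.29 for set2Δ (edgeR adjusted p = 0.949).

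RPL23B's 126-nt form averaged 34.0 ± 23.7 CPM at 37 °C and 56.5 ± 18.1 CPM at 25 °C (SD, n = 6 genotypes each). In reads, the 37 °C libraries had 52 (lowest 1, median 11, highest 15) and the 25 °C libraries 105 (lowest 9, median 18, highest 27). The lowest values, 1 and 2 reads, were in prp43-1 set1Δ and prp43-1 set2Δ at 37 °C, and the groups overlapped. Its log2 fold change was −0.92 for 37 against 25 °C (SE 0.46, edgeR adjusted p = 0.250), higher in 2 of 6 pairs. For prp43-1 against PRP43 it was −0.90 (SE 0.45, edgeR adjusted p = 0.344), higher in 1 of 6 pairs. The prp43-1 strains had 32.8 ± 22.0 CPM and the PRP43 strains 57.7 ± 18.4 CPM (SD, n = 6 libraries each).

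Reads were then summed over all forms of a gene. RPL2B, RPL21A, RPL23B and RPL27A were the 4 member genes kept, of 117 in all, and 0 passed for either comparison. Over all genes 5.13% passed for 37 against 25 °C (6 of 117) and 13.7% for prp43-1 against PRP43 (16 of 117). At an unadjusted p under 0.05, 26 of the 117 genes passed in each comparison and 0 of the 4 members did, and DESeq2 called 0 of the members.

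For 37 against 25 °C the log2 fold change of the summed reads was −0.97 in RPL2B (SE 0.49, edgeR adjusted p = 0.233) and −0.86 in RPL21A (SE 0.63, edgeR adjusted p = 0.419). RPL23B had −0.74 (SE 0.42, edgeR adjusted p = 0.286) and RPL27A −0.0019 (SE 0.75, edgeR adjusted p = 0.998). RPL2B had 40 reads at 37 °C and 90 at 25 °C. In CPM scaled with the factors of the form fit, RPL2B was higher at 37 °C in 1 of 6 genotypes. The log2 fold changes rest on the factors of the gene fit, with which this count can differ. For prp43-1 against PRP43, RPL27A had a log2 value of 0.51 (SE 0.40, edgeR adjusted p = 0.503) and RPL2B −0.49 (SE 0.48, edgeR adjusted p = 0.585). RPL23B had −0.64 (edgeR adjusted p = 0.423) and RPL21A −0.57 (edgeR adjusted p = 0.591). RPL2B had 52 reads with prp43-1 and 78 with PRP43. Its CPM, again scaled with the factors of the form fit, were higher with prp43-1 in 0 of 6 pairs.

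With every form of at least 10 reads in the fit, 22 member forms could be tested of 1440, and 0 passed. The share called over the table was 3.54% for 37 against 25 °C (51 of 1440) and 2.92% for prp43-1 against PRP43 (42 of 1440). Of the 22 members, 10 had a positive log2 fold change with heat and 12 a negative one, with a median of −0.30. Over all 1440 forms 732 were positive, with a median of 0.013. For prp43-1 the median log2 fold change was −0.12 over the 22 members and −0.07 over all 1440 forms. At an unadjusted p under 0.05, 5 of the 22 passed for temperature, 4 for prp43-1, 2 for set1Δ, 0 for set2Δ and 3 for the interaction. Over all 1440 forms, 242 passed for temperature, 159 for prp43-1, 69 for set1Δ, 67 for set2Δ and 106 for the interaction at the same limit. Summed per gene with the same minimum, 26 member genes were tested and 0 passed, against 3.32% (13 of 391) for temperature and 5.12% (20 of 391) for prp43-1. The median log2 fold change with heat was 0.04 over the 26 member genes and 0.34 over all 391.

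Nearest to the threshold with heat was RPL27B's 388-nt form, with the donor 4 nt upstream. It had 5 reads in prp43-1 set2Δ, 4 in prp43-1 set1Δ, 6 in prp43-1, 3 in set2Δ, 0 in set1Δ and 10 in wild type at 37 °C. At 25 °C it had 0 reads in all 3 prp43-1 strains, 1 each in set2Δ and set1Δ, and 2 in wild type. It was higher at 37 °C in 5 of 6 genotypes, and set1Δ went the other way. The log2 fold change of the 388-nt form of RPL27B was 2.75 (SE 0.90, edgeR unadjusted p = 0.00264, adjusted p = 0.0605).

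RPL40A's 444-nt form, ending 10 nt downstream at AAG, had 1 read in prp43-1 set2Δ, 5 in prp43-1 set1Δ, 5 in prp43-1, 1 in set2Δ, 6 in set1Δ and 1 in wild type at 37 °C. At 25 °C it had 3 reads in prp43-1 and 0 in the other 5. It was higher at 37 °C in 6 of 6 genotypes, with a log2 fold change of 2.70 (SE 1.09, edgeR unadjusted p = 0.0136, adjusted p = 0.134). RPL40A's form 1 nt past the annotated site had 11 reads at 37 °C and 19 at 25 °C, of which 11 were in prp43-1 set1Δ. That form was higher at 37 °C in 3 of 6 genotypes, with a log2 fold change of −0.18 (SE 0.91, edgeR adjusted p = 0.946). The difference between these 2 forms of RPL40A was not tested.

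RPL2B's 154-nt form, with the internal donor, had 4 reads with prp43-1 (lowest 0, median 1, highest 1) and 24 with PRP43 (lowest 1, median 3.5, highest 9). The groups touched at 1 read, and the form was higher with prp43-1 in 0 of 6 pairs. Its log2 fold change was −2.27 (SE 0.94, edgeR unadjusted p = 0.0171, adjusted p = 0.228). RPL27A's 565-nt form, with the donor 4 nt upstream, had 11 reads with prp43-1 and 1 with PRP43, a log2 fold change of 2.79 (SE 1.27, edgeR adjusted p = 0.338).

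**Figure D4:**
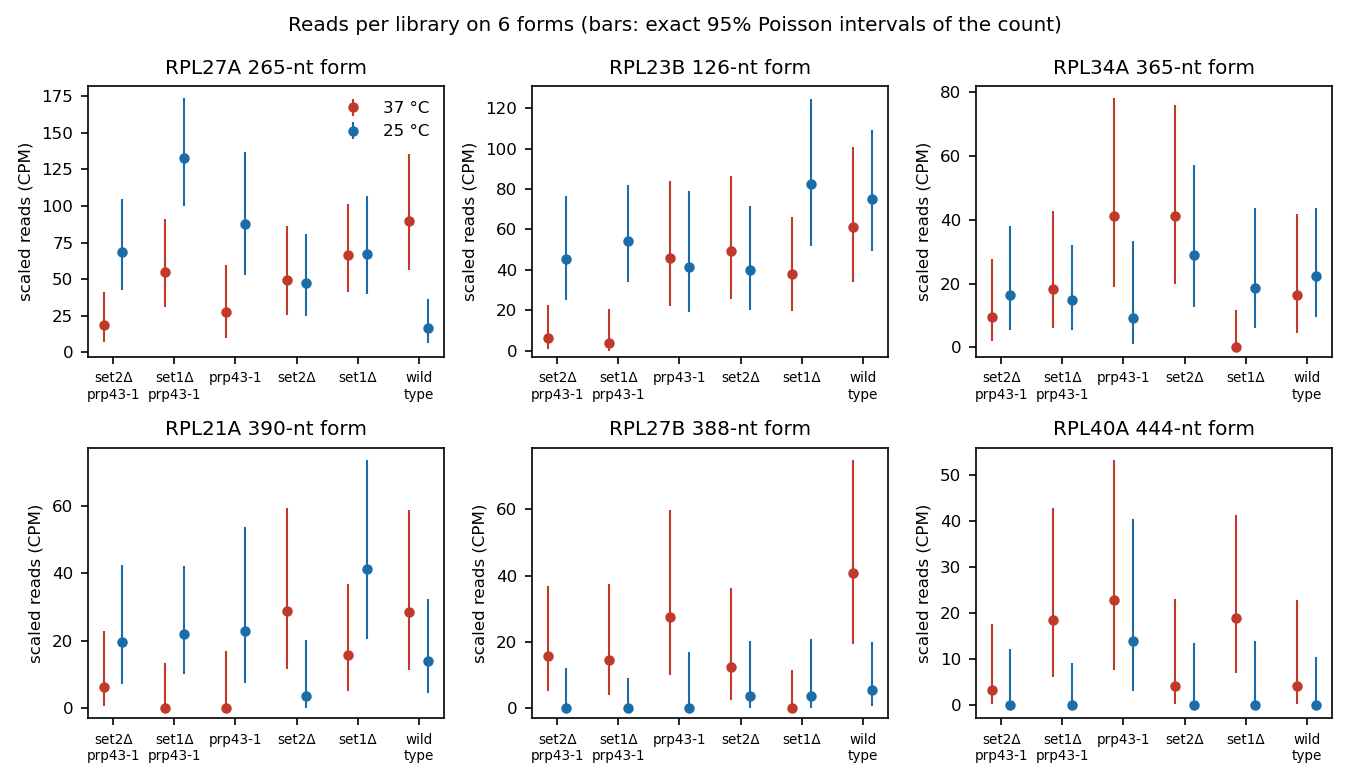
Points give the scaled reads (CPM) of 6 forms in each genotype at 37 °C (red) and 25 °C (blue), with exact 95% Poisson intervals of the count. RPL27A's 265-nt form is lower at 37 than at 25 °C in all 3 prp43-1 strains and higher at 37 °C in wild type, and RPL27B's 388-nt form is higher at 37 °C in 5 of 6 genotypes.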

How the data were processed

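The authors deposited 1 table for the series, with a row per splice form and, per the file headers, a column per library of read counts, which are whole numbers and were not scaled. Each form also has a deposited p-value, and what it tests is not given in the sources used here. Introns of the annotation are not among the rows, so use relative to normal splicing could not be computed. The submitters' processing notes name CASAVA, STAR 2.4.0 and the sacCer3 build. The counting rule is not given in the sources used here. All 12 library columns matched a sample title. Total sequenced reads are unknown, and intervals cover counting error only.

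The member genes, lists and comparisons were chosen with earlier results of these data known. Positions run over the skipped bases, counted from 1. The build was checked on the 1112 forms whose deposited p-value is below 1: GT-AG ends were found for 729 with positions as written, and for 26 or fewer with positions moved by 1 to 5 nt either way. The strand is that of the gene, since the table gives none. Ends were compared with introns of coding sequence, and TACTAAC was searched on the strand of the gene only. Reading frames used the annotated start codon.

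Counts were tested with edgeR 4.0.16 in R 4.3.3: filterByExpr, TMM factors on column totals, and a model of set status, prp43 status and temperature over all 12 libraries. No condition has a replicate, so the spread is the residual of this model (biological coefficient of variation 33.6% for forms and 40.9% for genes), and p-values measure only that. The model has no strain term, so it treats the 2 libraries of a strain as separate samples. Standard errors were taken from the test statistic and are approximate. CPM, of forms and of genes, are counts per 1000000 of the column total scaled with the TMM factors of the form fit. The gene fit had its own factors, for example 1.69 against 1.15 in wild type at 37 °C. Gene CPM are therefore not on the scale of the gene fold changes. DESeq2 1.42.0, other scalings, filters and left-out libraries were alternatives. Named with values are the member forms kept by the filter, the 15 with the most reads, the 10 genes with the most reads and genes with no form. Other forms named, including those with 10 or more reads, were chosen after their values were seen, as were the sequences so marked.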

Additional observations from a re-analysis of the deposited data

Results flagged for a closer look

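The 265-nt form of RPL27A moved in opposite directions with prp43-1 at the 2 temperatures. At 37 °C each of the 3 prp43-1 strains had fewer scaled reads than its PRP43 partner, with a mean difference of −34.64 CPM, and at 25 °C each had more, with a mean difference of 52.61 CPM. The difference of these differences was −87.25 CPM. The test of the interaction itself did not pass (edgeR's quasi-likelihood test, adjusted p = 0.265), and 0% of the 451 forms tested passed it. The summed reads of RPL27A, of which this form holds 213 of 227, gave −28.13 CPM at 37 °C and 58.41 CPM at 25 °C, a difference of −86.54 CPM. These CPM use the scaling factors of the form fit. The differences were not computed with the factors of the gene fit, with which their sizes would change. The interaction was not tested for summed reads.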

How the results depend on the processing

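Each result was recomputed with other scalings, filters, tools or libraries, 664 values in all, of which 637 kept their direction and their side of the threshold or stayed within their interval. The number of member forms and genes called was 0 in all 183 alternative counts. They include the replicate block by strain for the temperature contrast, which pairs the 2 libraries of a genotype and called 0 member forms and 0 member genes. Over the whole table, the forms called ran between 2 and 75 for temperature (36 in the report) and between 7 and 38 for prp43-1 (18 in the report). The genes called ran between 2 and 13 for temperature (6 in the report) and between 2 and 20 for prp43-1 (16 in the report). Without TMM factors the median log2 fold change of all genes for 37 against 25 °C was −0.38, against −0.02 with them. Directions were lost for RPL27A only, in values that were not called. Its 265-nt form had a log2 fold change for prp43-1 against PRP43 of −0.22 to 0.51 with a library or genotype left out, and −0.024 without set1Δ and prp43-1 set1Δ. For set2Δ against SET2 it had −0.73 to 0.46 with a library or genotype left out. Its summed reads for 37 against 25 °C had −0.26 to 0.21 with a library or genotype left out. They had 0.048 with DESeq2's size factors in edgeR, 0.045 without SCR1, 0.048 with DESeq2, 0.011 with the replicate block and 0.27 without set1Δ and prp43-1 set1Δ. The GT-AG share of forms was 62.4% among those with a deposited p-value under 0.05, against 39.9% of all. The share of reads on forms with the annotated 5′ site was 80.5% under the same limit, 55.3% without forms shorter than 50 nt and 42.1% without the RPL27A form, against 51.7% of all. A deposited p-value under 0.05 was held by 90 of the 97 forms with the annotated 5′ site and 38 of the 42 with the annotated 3′ site. It was held by 3 of the 43 forms that overlap the intron with neither end and by 0 of the 39 exon forms. Both shares under this limit thus rest mostly on forms with an annotated site. No cause was tested. A test of set1Δ without the set1Δ libraries cannot be made. With 1293 reads over 223 forms and no replicate, changes in all but the 2 kept forms were not detectable at this depth with the filter used.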

Other observations

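In some less abundant genes a single library held many of the reads. RPL28 had 14 of its 31 reads in wild type at 25 °C, and RPL13A (YDL082W) 5 of its 6. RPL6A (YML073C) had 4 of its 6 reads in set1Δ at 25 °C, and RPL37B (YDR500C) 4 of its 6 in set1Δ at 37 °C. RPL33A had 5 of its 12 reads in prp43-1 set2Δ at 37 °C, and RPL40B (YKR094C) 5 of its 12 in prp43-1 at 25 °C. These genes were chosen after their values were seen, and each count is from a single library.

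RPL23A's 504-nt form, with both ends moved 12 nt upstream, had 0 reads at 37 °C and 10 at 25 °C, in 4 of 6 libraries. RPL40A's 433-nt form had 9 reads at 37 °C, in 4 libraries, and 1 at 25 °C. RPL28's 127-nt form, at VII:311401-311527, had 1 read with prp43-1 and 15 with PRP43, and the wild-type strain held 4 (37 °C) and 8 (25 °C) of those 15, while set1Δ had 0. None of the 3 passed edgeR's quasi-likelihood test after Benjamini-Hochberg adjustment over the 1440 forms with at least 10 reads.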
